A study of Glycine max with 8 samples.

Results

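Close neighbours among the binding regions of the protein encoded by GLYMA.08G357600 are described here for soybean (Glycine max) embryos at mid-maturation. Of the 15872 regions found in both ChIP replicates, 2637 (16.6%) were 1000 bp wide or less and had another shared region with its midpoint at most 2000 bp away. These members were chosen by the position, width and overlap of called peaks, so their closeness is a description and not a result. They are set beside 12852 regions of the same width limit with no such neighbour, called lone regions below. A further 383 shared regions were wider than 1000 bp and could be neighbours but not members.

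The tissue came from embryos of the cultivar Williams 82, dissected from seeds of 200 to 250 mg and crosslinked with formaldehyde. Chromatin was precipitated with an antibody against a peptide of the GLYMA.08G357600 protein (ChIP), and chromatin that saw no antibody was sequenced as input. There were 4 ChIP and 4 input libraries, from 2 biological replicates on 2 lanes each, all of the same cultivar and stage with no other treatment. The values used are those of 2 peak lists, 1 per ChIP replicate, with 21196 and 18385 peaks, and the input libraries enter only as the background against which peaks were found. Nothing in the labels says whether the biological replicates were separate chromatin preparations or how many embryos each held.

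Mid-maturation is the stage at which a legume embryo fills its cells with storage protein and oil. Proteins that control genes at this stage commonly bind short DNA sequences in stretches of open chromatin, often more than once in one stretch. In ChIP-seq such sites are most readily seen apart when they are farther from each other than a sheared fragment is long. A peak caller otherwise tends to report them as 1 broad peak. A pair of narrow regions up to 2000 bp apart therefore shows spacing at the scale that the method can separate, and closer sites often fall within single regions. The sources used here name no genome build for the coordinates, so neither DNA sequences nor gene names are given.

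Most members were in mutual pairs. In 1200 mutual pairs both regions were 1000 bp or less and each was the nearest shared region of the other. These pairs held 2400 of the 2637 members, or 91.0% (Wilson 95% interval 89.9% to 92.0%). Another 150 members had a nearest region that itself lay closer to a further region. The remaining 87 members had a region wider than 1000 bp as their nearest neighbour. A mutual pair can be part of a longer run, described below, and 474 members (18.0%) lay in runs of 3 or more regions. Among all shared regions of 1000 bp or less, members made up 17.0% (interval 16.4% to 17.6%). Intervals on percentages cover counting error only and treat regions as independent. Partners of a pair share their place on the chromosome, so intervals on members by position are too narrow. The number of members follows the length of the lists, with 1216 when only peaks with a −log10 q of at least 10 were kept and 4846 when the replicate 1 list was taken alone.

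The midpoints of mutual partners lay a median of 1166 bp apart, with quartiles of 859 and 1530 bp and a shortest distance of 387 bp. Between the facing edges of the partners a median of 670 bp held no shared region, with quartiles of 332 and 1025 bp. The gap was at least 500 bp in 751 pairs (62.6%) and under 100 bp in 59 (4.92%). For comparison, the narrowest peaks of the lists were 223 bp and 221 bp wide.

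**Figure D1:**
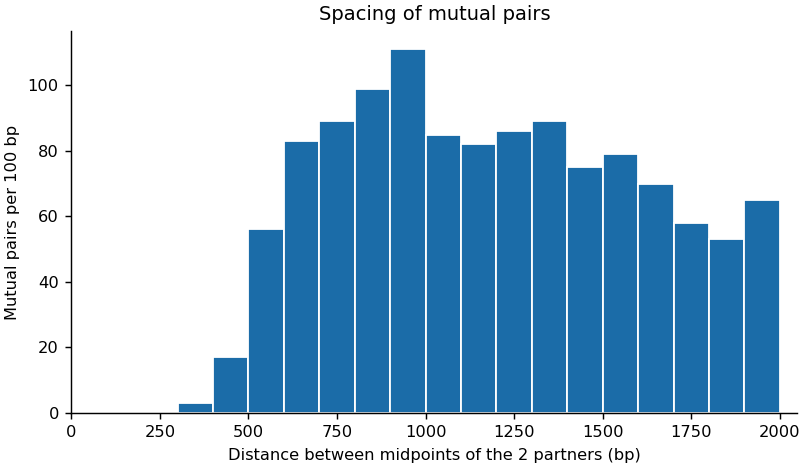
Number of mutual pairs (y axis) in each 100 bp step of the distance between the midpoints of the partners (x axis, bp). The count climbs from 3 pairs at 300 to 400 bp to 111 pairs at 900 to 1000 bp and then declines to 53 pairs at 1800 to 1900 bp and 65 in the last step.

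Pairs were spread over the whole range that the limit allows. Of all 1200 pairs, 20 pairs lay below 500 bp, and each step of 100 bp from 500 to 2000 bp held between 53 and 111 pairs. The fullest step was 900 to 1000 bp, with 111 pairs, beside 99 in the step before and 85 in the step after. Whether the fullest step departs from a smooth course was not tested.

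Spacing was similar in the lists, which is in part built in. Each region joins overlapping peaks of both lists and members are 1000 bp wide or less, so their summits could not lie far apart. Measured from summit to summit, the median distance was 1167 bp in replicate 1 and 1161 bp in replicate 2. Pair by pair, the distances of the lists differed by a median of 45 bp, with quartiles of 20 and 82 bp. They agreed within 50 bp in 656 pairs (54.7%, interval 51.8% to 57.5%) and within 100 bp in 979 (81.6%, interval 79.3% to 83.7%). Within single regions the summits of the lists were a median of 30 bp apart in members and 29 bp in lone regions.

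Single-list peaks were also placed against the gaps between partners. Of the 5251 peaks found in replicate 1 alone, 4 had their summit between the partners of a mutual pair, and of the 2389 found in replicate 2 alone, 8 did. These are 0.0762% and 0.335% of such peaks, where the gaps between partners add up to 0.841 Mb, or 0.0881% of the 955 Mb of sequence counted up to the last peak of each sequence. Around members, a peak of replicate 1 alone lay within 2000 bp of 6.18% of regions (interval 5.32% to 7.17%), against 6.28% (5.87% to 6.71%) of lone regions. For peaks of replicate 2 alone the shares were 2.54% (2.01% to 3.21%) and 2.60% (2.34% to 2.89%). Members and lone regions therefore had weak single-list peaks nearby at shares whose intervals overlap.

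The 3 closest pairs by midpoint lay on chromosomes 17 and 20. On chromosome 17, regions from 20492896 to 20493231 and from 20493292 to 20493609 had midpoints 387 bp and edges 60 bp apart. Their fold enrichments, the fragments at the summit over the local background as the authors' peak caller gave them, were 5.39 and 7.95 in replicate 1 and 4.88 and 6.54 in replicate 2. The right partner was the stronger in both lists. A second pair on chromosome 17, from 6351455 to 6351799 and from 6351853 to 6352179, was 389 bp apart, with folds of 5.30 and 6.12 in replicate 1 and 6.14 and 6.94 in replicate 2. The third, on chromosome 20 from 1456352 to 1456628 and from 1456711 to 1457052, was 391.5 bp apart, with folds of 4.28 and 4.69 in replicate 1 and 5.07 and 4.20 in replicate 2. Here the stronger partner changed between the lists. Summits of these pairs lay 393, 423 and 486 bp apart in replicate 1 and 392, 373 and 498 bp apart in replicate 2.

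Having a neighbour within 2000 bp went with hardly any difference in strength. The median fold of members was 6.95 in replicate 1 (quartiles 5.09 and 11.0), and that of lone regions was 6.84 (5.10 and 10.3). In replicate 2 the medians were 7.24 (5.34 and 11.7) and 7.21 (5.37 and 10.9). On the log2 scale the difference of the medians, averaged over the lists, was 0.01 ± 0.01 (SD, 2 lists), as small as the spread between lists. Median summit pileups, the number of overlapping fragments, were 39 in members and 38 in lone regions in replicate 1, and 30 in both groups in replicate 2. No test was made, since the folds come from the same calls that chose the members.

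At the strong end members were slightly more frequent. A fold of at least 10 in both lists was reached by 669 members, or 25.4% (interval 23.7% to 27.1%), and by 2890 lone regions, or 22.5% (21.8% to 23.2%). For a fold of at least 20 in both lists the shares were 7.05% (6.14% to 8.09%) and 5.81% (5.42% to 6.23%), with intervals that overlap. Dividing all regions of 1000 bp or less into quintiles of their replicate 1 fold, members made up 17.3%, 16.2%, 16.02%, 16.5% and 19.1% from the weakest to the strongest quintile. In replicate 2 the shares were 17.9%, 16.5%, 15.2%, 16.7% and 18.8%. Both ends of the scale thus lay above its middle in both lists, by a few percentage points. In the strongest quintile the interval was 17.7% to 20.5% in replicate 1 and 17.5% to 20.2% in replicate 2.

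Members were a little wider, with a median of 470 bp (quartiles 377 and 591 bp) against 444 bp (363 and 559 bp). The peaks themselves had median widths of 432 bp in members and 409 bp in lone regions in replicate 1, and of 394 and 379 bp in replicate 2. Local background was alike, with medians of 4.47 and 4.59 fragments in replicate 1 and 3.17 in both groups in replicate 2. Repeat of strength between the lists was also close, with a Spearman rho of fold of 0.823 across members and 0.795 across lone regions. These coefficients run across regions of the same libraries and carry no p.

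Within a pair, the partners often differed in fold, though sorting each pair into stronger and weaker sets the medians apart in part by construction. The stronger partner had a median fold of 9.99 in replicate 1 (quartiles 6.93 and 15.5), and the weaker partner 5.33 (4.39 and 7.04). In replicate 2 the medians were 10.2 (7.21 and 16.7) and 5.63 (4.70 and 7.24). The ratio of the stronger to the weaker had a median of 1.66 in both lists, with quartiles of 1.26 and 2.49 in replicate 1 and 1.24 and 2.47 in replicate 2. At least 2-fold apart were the partners of 441 pairs (36.8%) in replicate 1 and 453 (37.8%) in replicate 2, and at least 5-fold apart those of 76 (6.33%) and 63 (5.25%). The stronger partner was also the wider, with a median of 525 bp against 408 bp when ranked by replicate 1 and 527 bp against 411.5 bp by replicate 2.

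**Figure D2:**
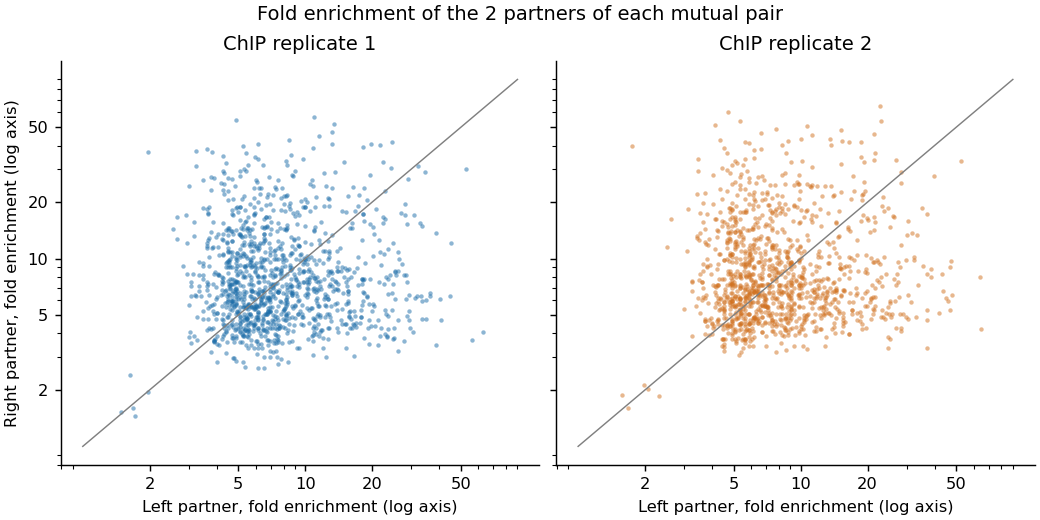
Fold enrichment of the left partner (x axis) and right partner (y axis) of each of the 1200 mutual pairs, both on log axes, for ChIP replicate 1 and ChIP replicate 2; the grey line marks equal folds. Points fill the field on both sides of the line without a slope, and the Spearman rho was 0.012 and 0.029; the few points near 2 on both axes are pairs with a high input background.

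The strength of one partner was nearly unrelated to that of the other. Across the 1200 pairs the rank correlation of left and right fold was 0.012 in replicate 1 and 0.029 in replicate 2, and that of the pileup was 0.0040 and 0.031. Each pair shares its library and its stretch of the genome, and the coefficients are descriptions. Adjacent regions of 1000 bp or less that lay 2 to 5 kb apart gave 0.032 and 0.0012, those 5 to 10 kb apart 0.039 and 0.015, and those 10 to 50 kb apart 0.0033 and -0.0025. All of these were near 0. Median ratios of such farther neighbours were 1.61 and 1.63 at 2 to 5 kb, 1.61 and 1.58 at 5 to 10 kb, and 1.63 and 1.61 at 10 to 50 kb, beside 1.67 and 1.66 for all adjacent regions within 2 kb.

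Input background, in contrast, was somewhat shared by partners. Its rank correlation between left and right partner was 0.1196 in replicate 1 and 0.191 in replicate 2. MACS2 commonly takes part of the background from windows wide enough to cover both partners, and the part of this in the likeness was not tested. Backgrounds of partners differed by a median factor of 1.204 in replicate 1 and 1.18 in replicate 2, much less than their folds. The background has a lower bound in each list, and 27.1% of members lay at it in replicate 1 and 28.5% in replicate 2. How far this bound sets the small factors and the correlation was not tested.

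In most pairs the order of the partners was the same in both lists. The stronger partner was the same region in both lists in 962 of 1200 pairs, or 80.2% (interval 77.8% to 82.3%). Adjacent regions farther apart gave similar shares. These were 81.1% at 2000 to 5000 bp, 81.5% at 5000 to 10000 bp and 81.4% at 10000 to 50000 bp. The repeat of the order was thus not particular to close pairs. Where mutual partners differed by less than 1.25-fold, taking the geometric mean of the lists, the order held in 106 of 308 pairs (34.4%). Between 1.25-fold and 1.5-fold it was so in 196 of 229 (85.6%), between 1.5-fold and 2-fold in 226 of 229 (98.7%), and at 2-fold or more in all 434. These classes use the mean of the lists, so agreement at high ratios is in part built in. Ratios of opposite direction cancel in that mean, which moves pairs that change order into the low classes. The low share of 34.4% is thus in part built in too. Counting each list on its own, 327 pairs were at least 2-fold apart in the same direction in both lists and 0 in opposite directions. Over all 1200 pairs, a count of 0 has a Wilson upper limit of 0.319%. Only pairs at least 2-fold apart in both lists could enter either count, so the limit is not a rate among such pairs. Of the 238 pairs whose stronger partner was not the same region in both lists, 20 were at least 2-fold apart in one of them, the largest ratio being 3.00.

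**Figure D3:**
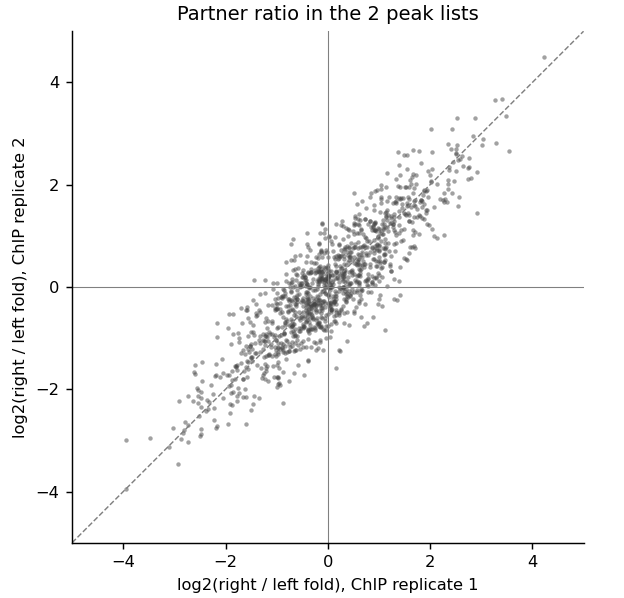
Log2 of the right over the left partner's fold enrichment in ChIP replicate 1 (x axis) and ChIP replicate 2 (y axis) for the 1200 mutual pairs; the dashed line marks equal ratios. Points follow the dashed line (Spearman rho 0.854); in 20 of the 238 pairs off the shared order, at the upper left and lower right, one of the lists has a ratio of 2-fold or more, up to 3.00-fold.

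The spread between lists sets the size of ratio that can be read. The log2 ratio of a pair had an SD of 0.40 between the lists, against an SD of 1.13 across pairs. For the 275 pairs whose weaker partner had fewer than 25 fragments in replicate 1, the SD between lists was 0.41, and for the 290 pairs with 40 or more it was 0.38. A 2-fold difference, 1 on the log2 scale, is thus larger than the spread between the lists in each of these classes. Neither side was favoured, since the right partner was the stronger in 485 of the 962 pairs with a stable order (50.4%, interval 47.3% to 53.6%).

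Ratio and spacing were not tied in a simple way. Pairs up to 750 bp apart (211) had median ratios of 1.56 and 1.505, those from 750 to 1000 bp (247) 1.81 and 1.68, and those from 1000 to 1250 bp (210) 1.81 and 1.77. At 1250 to 1500 bp (207) the values were 1.67 and 1.69, at 1500 to 1750 bp (187) 1.60 and 1.55, and at 1750 to 2000 bp (138) 1.62 and 1.70. The closest class was also the weakest, with median folds of 6.12 and 6.399 against 7.41 and 7.74 in the next. Its median width of 433 bp was the smallest of the classes, which range up to 488 bp. Narrow peaks are the ones that can lie close without touching, and how far that accounts for the lower folds was not tested.

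Pairs with 2 strong partners were a minority. Both partners had a fold of at least 10 in both lists in 71 pairs (5.92%, interval 4.72% to 7.40%), 1 partner in 459 (38.3%) and neither in 670 (55.8%). Pairs in which neither partner reached that fold were thus the most frequent kind. Taken singly, 25.4% of members and 24.4% of all shared regions reached it in both lists. Most single regions fell short of it, so these counts do not show a trait of pairs.

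Ranked by the weaker partner, the strongest pair lay on chromosome 12, with regions from 9188629 to 9189424 and from 9189643 to 9190410 and midpoints 1000 bp apart. Its left partner had folds of 52.8 and 52.5 and pileups of 258 and 202 fragments in replicates 1 and 2, and its right partner folds of 30.2 and 33.3 with pileups of 147 and 138. Summits lay 1038 and 1041 bp apart in the lists, so the arrangement repeated to within a few bases. The left partner was the stronger in both lists, by 1.75-fold and 1.58-fold.

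Next came a pair on chromosome 8, from 2480153 to 2481040 and from 2482226 to 2482955, 1994 bp apart. Left and right folds were 34.5 and 29.1 in replicate 1 but 26.8 and 33.7 in replicate 2. The order of these partners changed between lists, and their difference was not larger than the spread between lists. On chromosome 6, regions from 3179923 to 3180807 and from 3180928 to 3181755 stood 976.5 bp apart with a gap of 120 bp. Folds there were 32.0 and 31.3 in replicate 1 and 39.8 and 27.4 in replicate 2.

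Chromosome 9 held the other pairs of this set of 5. One, from 44079908 to 44080507 and from 44080963 to 44081483, had folds of 22.9 and 23.0 in replicate 1 and 28.2 and 25.2 in replicate 2, with pileups of 130 and 130 and of 120 and 97 fragments. It was the most even of the 5 pairs, with ratios of 1.00 and 1.12. The other, from 4144148 to 4144848 and from 4146114 to 4146822, had folds of 24.3 and 30.4 in replicate 1 and 21.7 and 36.4 in replicate 2. Its right partner was the stronger in both lists.

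The most unequal pairs had a strong partner beside a much weaker one. On chromosome 13 the left partner, from 31638689 to 31639605, had folds of 62.8 and 65.0 and pileups of 357 and 304 fragments. Its right partner, from 31640399 to 31640684, had folds of 4.07 and 4.22 and pileups of 27 and 22. The ratio was 15.4 in both lists. Chromosome 20 showed the reverse order, with folds of 3.62 and 4.72 from 45198209 to 45198510 and of 38.5 and 60.6 from 45198599 to 45199474.

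On chromosome 11 a region from 26947350 to 26948052 with folds of 56.3 and 64.1 stood beside one from 26948382 to 26948691 with 3.67 and 8.01. On chromosome 14 a region from 14137366 to 14137845 with folds of 3.81 and 4.10 stood beside one from 14138171 to 14139038 with 37.0 and 51.5. The strong partners of these 4 pairs were 703 to 917 bp wide and the weak ones 286 to 480 bp.

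The largest ratio of all arose differently. It belonged to a pair on chromosome 8, from 43113027 to 43113606 and from 43113702 to 43114233, with ratios of 18.7 and 22.7. Left folds were 1.96 and 1.74 and right folds 36.8 and 39.6. Pileups were far closer, at 121 and 233 fragments in replicate 1 and 103 and 198 in replicate 2. Background at the left partner was 61.2 and 58.7 fragments, against 5.36 and 4.03 at the right partner. The background itself thus differed by 11.4-fold and 14.6-fold between places 651 bp apart.

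Along the chromosomes, members lay where shared regions lay. Of the 2623 members on chromosomes, 1834 (69.9%, interval 68.1% to 71.6%) were in the outer 20% at either end, against 67.7% (66.9% to 68.5%) of lone regions. The outermost 10% at either end held 42.0% (40.1% to 43.9%) of members and 38.3% (37.4% to 39.1%) of lone regions. These intervals do not overlap, but they count partners at one place as independent and are too narrow for members. The middle 20% held 137 members (5.22%, interval 4.44% to 6.14%) and 6.19% (5.78% to 6.62%) of lone regions. Taking chromosomes as the unit, the outer share of members averaged 71.4% ± 12.4 and that of lone regions 69.0% ± 10.8 (SD, n = 20 chromosomes), and it was higher for members on 12 of 20. Taken within each chromosome, members minus lone regions averaged 2.39 ± 5.65 percentage points (SD, n = 20 chromosomes), from -6.95 to 17.5.

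Density changed far more along the chromosomes than the share of regions with a neighbour did. With each chromosome divided into 10 equal steps, shared regions numbered 32.2 and 33.0 per Mb in the outermost steps and 5.52 and 4.40 per Mb in the central ones. Members made up 18.1% and 18.7% of regions of 1000 bp or less in the outermost steps and 14.5% and 15.1% in the central ones. In the centre the intervals were 11.7% to 17.8% and 11.98% to 18.9%. Median folds of members were 7.13 and 7.23 in the middle 20% and 7.01 and 7.27 in the outermost steps.

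**Figure D4:**
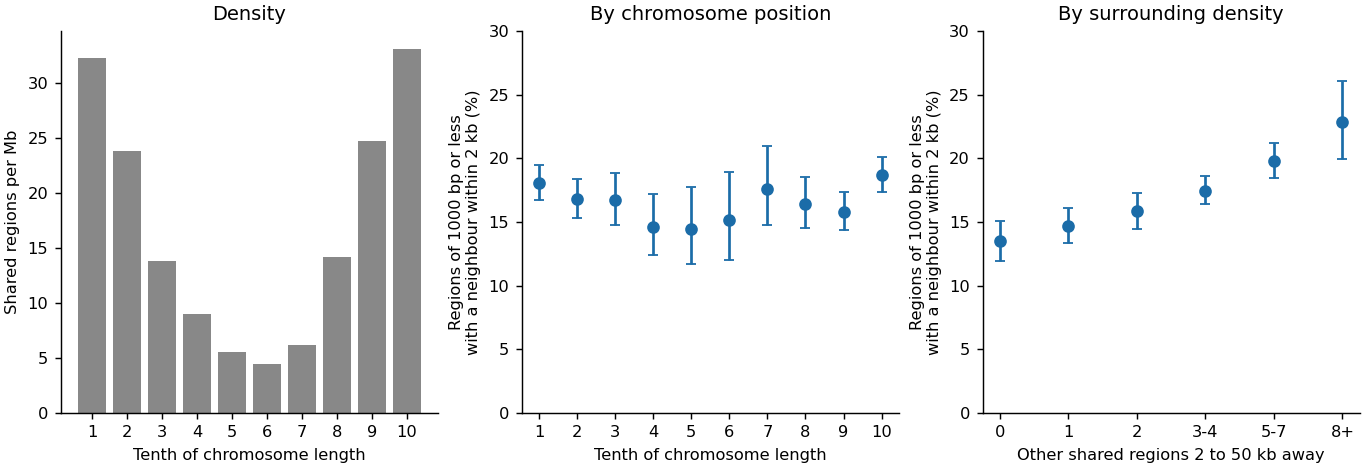
Left, shared regions per Mb in each of 10 equal steps of chromosome length; middle, percent of regions of 1000 bp or less that have a neighbour within 2 kb, by the same steps; right, the same percent by the number of other shared regions 2 to 50 kb away. Points carry Wilson 95% intervals; density differs from 4.40 to 33.0 per Mb while the percent stays between 14.5% and 18.7% by position and goes from 13.5% to 22.9% by surrounding density.

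Surroundings were followed out to 50 kb, leaving out the nearest 2 kb that define the members. With no other shared region there, 13.5% of 1812 regions were members (interval 11.97% to 15.1%). The share was 14.7% with 1 other region, 15.8% with 2, 17.5% with 3 to 4 and 19.8% with 5 to 7. With 8 or more it was 22.9% of 730 regions (19.98% to 26.1%). Close pairs were thus more frequent in crowded stretches, yet stretches with no further region within 50 kb still held 244 members. In the outer and inner parts of chromosomes the shares ran alike, at 13.6% and 13.4% with no other region and 22.3% and 25.8% with 8 or more.

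Single chromosomes differed little. Members made up 17.0% ± 1.84 of regions of 1000 bp or less (SD, n = 20 chromosomes), from 12.1% on chromosome 7 (interval 9.87% to 14.7%) to 20.5% on chromosome 14 (17.6% to 23.8%). These 2 intervals, the extremes of 20, do not overlap, but they too count partners as independent. Chromosome 7 with 40 mutual pairs and chromosome 14 with 62 had similar overall densities of 16.2 and 13.999 regions per Mb. Chromosome 6 held the most mutual pairs, 86, and chromosome 16 the fewest, 36. Across the 20 chromosomes the share of members and the density of shared regions had a Spearman rho of 0.024 and a Pearson r of 0.036, given as a description. Chromosome 13, the densest at 25.4 regions per Mb, had a share of 16.4%, and only 28.5% of its members lay in the outer 20%, beside 34.2% of its lone regions. Scaffolds outside the chromosomes held 14 members, with 5 on scaffold 27, 4 on scaffold 21, 3 on scaffold 28 and 2 on scaffold 44.

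Longer runs were uncommon. A run is a chain of shared regions of any width, each midpoint at most 2000 bp from the next. There were 1117 runs of 2 regions, 139 of 3, 16 of 4, 2 of 5 and 1 of 6. The 158 runs of 3 or more held 497 regions, 474 of them members, which is 18.0% of all members. Runs of 3 spanned a median of 3006 bp and runs of 4 a median of 4409 bp. Median folds in replicates 1 and 2 were 7.13 and 7.30 in runs of 2, 7.34 and 7.70 in runs of 3, and 6.64 and 7.56 in runs of 4. The 2 runs of 5 had higher medians, 10.6 and 10.4, and each held a region wider than 1000 bp. The run of 6 held none so wide and had 7.07 and 7.85.

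Among the 139 runs of 3, the strongest region was the middle one in both lists in 33 runs, the same outer one in both lists in 74, and a different one in each list in 32. Since 2 of the 3 places in such a run are outer ones, the larger count there is not by itself a preference for the ends. Of the 16 runs of 4, 15 had the same strongest region in both lists. The strongest of 3 was a median of 2.62-fold above the weakest in replicate 1 and 2.699-fold in replicate 2. In runs of 4 these medians were 3.39 and 4.38. Of the runs of 3 on chromosomes, 70.3% began in the outer 20% at either end, as did 69.6% of the runs of 2.

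The only run of 6 lay on chromosome 5 from 40535058 to 40540475 and spanned 5418 bp. From left to right its folds in replicate 1 were 6.93, 9.58, 8.59, 7.20, 5.96 and 5.71. In replicate 2 they were 9.08, 8.81, 6.89, 15.5, 6.27 and 4.81. The second region was the highest in replicate 1 and the fourth in replicate 2, and the last region was the lowest in both. The fourth region held 57 fragments at its summit in each list, so its lower fold in replicate 1 went with a higher background there. Steps between midpoints were 702, 1046.5, 1721, 830.5 and 773 bp, which is not an even spacing.

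Both runs of 5 were named after their values had been seen. One lay on chromosome 9 from 4122885 to 4128132, with replicate 1 folds of 16.8, 17.9, 12.6, 17.9 and 7.54 and replicate 2 folds of 19.1, 12.3, 15.0, 13.0 and 4.90. Its first 4 regions, the fourth of them 1241 bp wide and so not a member, all exceeded 12 in both lists. The last region was the lowest in both. The other lay on chromosome 11 from 4278935 to 4284731, with folds of 6.36, 15.8, 8.51, 6.78 and 6.23 and of 8.52, 13.4, 6.14, 7.03 and 5.52. There a region of 1188 bp, too wide to be a member, was the strongest in both lists.

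**Figure D5:**
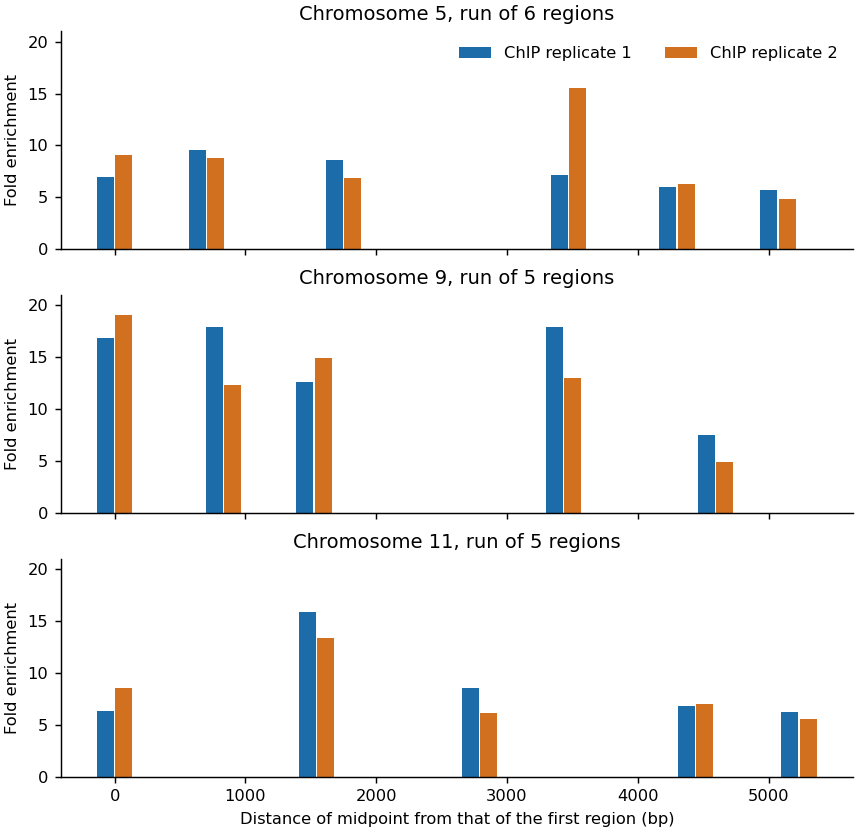
Fold enrichment (y axis) of each region of the longest runs against the distance of its midpoint from that of the first region (x axis, bp), with blue bars for ChIP replicate 1 and orange bars for ChIP replicate 2. The lists differ most at the fourth region on chromosome 5, with 7.20 in replicate 1 and 15.5 in replicate 2, and the last region is the lowest of its run in both lists in all 3 runs.

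The limit of 2000 bp cut through a continuous range. Just inside it, a region of chromosome 12 from 4736675 to 4736980 had its neighbour 2000 bp away and folds of 5.08 and 3.45. At 1998 bp stood one of chromosome 9 from 47557827 to 47558200, with folds of 3.34 and 5.16, and one of chromosome 11 from 2346803 to 2347530, with 7.99 and 12.8. Just outside, at 2001 bp, were both partners of a couple of chromosome 3. The left one, from 8757351 to 8757841, had folds of 19.6 and 19.4, and the right one, from 8759249 to 8759945, had 5.56 and 6.47. The third, of chromosome 11 from 7378749 to 7379168, had 4.94 and 2.87. Nothing in these values sets the sides of the limit apart.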

How the data were processed

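ChIP-seq was done on mid-maturation soybean embryos, with 4 ChIP and 4 input libraries. The submitters' processing notes name Bowtie 0.12.7 for alignment and MACS2 for peak calling. For the version and settings of MACS2 and the build of the genome, nothing is given in the sources used here. In each deposited list the lanes of a ChIP replicate appear joined. The deposited fold enrichment is a ratio over the local background at the summit, and the −log10 p, −log10 q and score columns that were deposited come from the same calls by the authors' caller. All are the authors' values for single peaks.

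Pileup and background were recovered by solving fold and Poisson p together, which gave whole pileups, within 0.01, for 100% of peaks in both lists. The lowest background, taken as genome-wide, was 3.91 fragments in replicate 1 and 2.74 in replicate 2; total reads per library are not used here, so depth is known only in these relative terms. Regions joined peaks of both lists overlapping by at least 1 bp, and the peak of highest fold gave a region its values. Left and right follow the deposited coordinates, counted from 1. Chromosome length was the highest peak end. No significance test was run, because position and strength come from the calls that chose the members; percentages carry Wilson 95% intervals. Members, measures and alternatives were chosen with earlier results of these data known. Named were the 5 pairs with the highest weaker partner by mean percentile rank, the 5 most unequal, the 3 closest, 3 regions on each side of the limit and the longest run. Alternatives changed overlap, distance, width, peak threshold, strength measure and replicate. Steps were tested on simulated data. Python 3.11.15, numpy 2.4.6, pandas 2.3.3, scipy 1.17.1 and networkx 3.6.1 were used.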

Additional observations from a re-analysis of the deposited data

How the results depend on the processing

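Of 121 alternatives over 11 results, 77 moved by less than the error or, for counts, by under 1.5 times, and 44 moved further; none of the values carries a test. With peaks of −log10 q of at least 10 there were 1216 members (11.8%), 559 mutual pairs and 54 runs of 3 or more, a median distance of 1203 bp, width of 518.5 bp, partner ratio of 1.59, rho of 0.0486 and log2 difference in fold of 0.053; the lists are shorter there. A limit of 1500 bp gave 12.2% members, a median distance of 976.5 bp, a ratio of 1.69, a rho of 0.0062 and 84 runs, and one of 2500 bp gave 21.2%, 1343 bp and 1.65. Without a width limit the distance was 1194 bp, the width 477 bp, the ratio 1.70 and the log2 difference 0.041. Leaving out high-background regions gave 1172 bp and a ratio of 1.67. An overlap of 50% gave a ratio of 1.66, as did summit distances (1.66). With −log10 q as strength the ratio was 2.46, the log2 difference 0.051, the rho 0.0047 and the same stronger partner held in 82.8%. Pileup as strength gave a ratio of 1.68 and 83.9%; this setting and the one with scaffolds left out were added after seeing the data. The outer 10% at each end held 42.0% of members. Causes were not tested.

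With either list alone (without ChIP replicate 1 or without ChIP replicate 2), which holds more and narrower peaks, there were 3685 to 4846 members (20.2% to 23.2%), 1687 to 2198 mutual pairs and 265 to 356 runs. Median distances were 1072.5 to 1096.5 bp, widths 370 to 376.5 bp, ratios 1.61 to 1.66 and rho -0.0026 to 0.019. Log2 differences were 0.0059 to 0.016 and outer shares 70.6% to 70.8%. No paired analysis was possible because only ChIP has lists, and input enters as their background.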

Other observations

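Some close sites were resolved in one list and merged in the other. In 66 shared regions replicate 1 had a pair of peaks where replicate 2 had 1, with summits a median of 481 bp apart (125 to 1705 bp). In 114 shared regions the reverse held, with a median of 562.5 bp (167 to 1750 bp). Of these regions 26 and 62 were wider than 1000 bp. They count as single regions above, so the number of separable close sites depends on the list. Among members, 18 (0.683%) held several peaks of a list, against 76 lone regions (0.591%) and 94 of the wide regions (24.5%).

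A small set of members had a high input background, over 5 times the lowest of the list in both lists. They numbered 11 of the 33 such shared regions (33.3%), while members were 16.6% of all shared regions. Their folds ran from 1.46 to 2.40 in replicate 1 and from 1.58 to 2.30 in replicate 2, although pileups were 85 to 301 and 63 to 253 fragments. In 5 mutual pairs both partners were of this kind, so the 33.3% rests on few separate places. One lay on chromosome 16 from 6446363 to 6446793 and from 6447037 to 6447556, with backgrounds of 160 and 115 fragments in replicate 1. Another, on chromosome 1 from 53487423 to 53487672 and from 53488140 to 53488548, had 122 and 169. The others were on chromosomes 8, 12 and 18. In 1 further pair, on chromosome 8, 1 partner alone had a high background. What the input signal at these places comes from was not tested.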
